A study of Mus musculus with 6 samples.

Results

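The genes described here encode the muscle acetylcholine receptor and the proteins that build it into the postsynaptic membrane of the neuromuscular synapse. They were taken from the deposited expression table by symbol, as Chrna1, Chrnb1, Chrnd, Chrng, Chrne, Musk, Rapsn and Cav3, which are 8 of its 21671 genes. Of these 8, 7 exceeded 0.25 RPKM (reads of a gene scaled to transcript length and library size) in at least 1 library and were among the 13934 genes tested, and Chrne did not.

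RNA-Seq was performed on cells freshly sorted from the gastrocnemius of mdxITGAM-DTR mice aged 10 to 12 weeks, of both sexes. All groups carried the same alleles: the mdx background, which lacks dystrophin, and, in homozygosity, a transgene in which the ITGAM promoter drives the diphtheria toxin receptor fused to EGFP in myeloid cells, so that diphtheria toxin (DT) depletes macrophages. Mice received intramuscular DT or PBS every 4 days and were killed 15 days after the first injection. Satellite cells (SCs), the resident stem cells of muscle, were sorted as Lin-/Sca1-/α7+ cells from PBS-injected mice (SCs CTRL) and from DT-injected mice (SCs DT), where α7 is the integrin encoded by Itga7 and Lin stands for CD45, CD31 and Ter119. Cells positive for both α7 and Sca1 (α7Sca1 cells) came only from DT-injected mice, so that for them the cell population and the DT injection cannot be told apart when they are set against SCs CTRL. Each group had 2 libraries, each made from the pooled muscles of 2 mice, and p-values therefore measure the spread between pools.

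The transcript of Sca1 was in the direction of the labels, whereas that of α7 was lower in α7Sca1 cells, although both populations were sorted as α7+. Itga7 lay between 75.0 and 78.3 RPKM in the 4 SC libraries and at 41.8 and 48.5 RPKM in α7Sca1 cells. Ly6a, which encodes Sca1, was at 31.0 and 21.6 RPKM in SCs CTRL, 51.8 and 55.2 in SCs DT and 344 and 248 RPKM in α7Sca1 cells. Pax7, the defining transcription factor of SCs, was at 4.87 and 5.01 RPKM in SCs CTRL, 3.45 and 2.67 in SCs DT and 0.380 and 0.319 RPKM in α7Sca1 cells. The summed level of 8 adipocyte genes was 95.9 and 72.1 RPKM in SCs CTRL, 226 and 631 in SCs DT and 11022 and 10855 RPKM in α7Sca1 cells. SCs CTRL replicate 1 stood apart through some extracellular matrix and myeloid transcripts, with Col1a1 at 2287 RPKM against 80.9 to 223 RPKM elsewhere and 8 macrophage genes summing to 1019 RPKM against 223 to 546 RPKM elsewhere. Col3a1 was also highest there (271 RPKM), but Dcn was at 425 RPKM against 575 RPKM in α7Sca1 replicate 1. Of the macrophage genes only Cd14 was not highest there, at 110 RPKM against 194 and 197 RPKM in α7Sca1 cells.

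As background, the muscle acetylcholine receptor is a cation channel opened by acetylcholine from the motor nerve. Chrna1, Chrnb1 and Chrnd encode its α, β and δ subunits, and the remaining position is held by the γ subunit (Chrng) in fetal and denervated muscle and by the ε subunit (Chrne) at the adult innervated endplate. Agrin released by the nerve binds Lrp4, which activates the receptor tyrosine kinase encoded by Musk; with the adaptor Dok7, Musk signalling makes rapsyn, the product of Rapsn, cluster receptors under the nerve terminal. Cav3 encodes the caveolin of striated muscle, which forms caveolae in the fiber membrane and is switched on during myoblast differentiation. Myogenic bHLH factors such as MyoD and myogenin are known to activate receptor subunit genes through E-boxes, and GABP acts through the N-box in nuclei beneath the synapse. SCs are mononucleated cells that carry no synapse.

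Promoter sequences were looked up for the members in RefSeq (build GRCm38.p6), and 6 of the 8 were found: Chrna1, Chrnb1, Chrng, Chrne, Musk and Cav3. Shown are the 160 bases before the annotated start of 5 of them, because they include the subunit genes found on both sides of SCs CTRL in SCs DT, none of which passed the test (Chrna1 and Chrng above, Chrnb1 below), the subunit gene near 0 (Chrne) and the member that passed (Cav3). Capitals mark E-boxes (CANNTG) and N-boxes (CCGGAA), searched on both strands, and no E-box overlapped an N-box. The windows are chr2:73580339-73580498 on the minus strand for Chrna1, chr11:69795938-69796097 on the minus strand for Chrnb1, chr1:87205651-87205810 on the plus strand for Chrng, chr11:70619195-70619354 on the minus strand for Chrne and chr6:112459345-112459504 on the plus strand for Cav3.
Chrna1: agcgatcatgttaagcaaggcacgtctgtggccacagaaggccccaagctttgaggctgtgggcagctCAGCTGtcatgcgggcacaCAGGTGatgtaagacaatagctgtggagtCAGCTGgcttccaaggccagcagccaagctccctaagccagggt
Chrnb1: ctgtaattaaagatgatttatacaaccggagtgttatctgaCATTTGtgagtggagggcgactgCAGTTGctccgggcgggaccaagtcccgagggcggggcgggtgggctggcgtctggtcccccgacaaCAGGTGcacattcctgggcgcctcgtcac
Chrng: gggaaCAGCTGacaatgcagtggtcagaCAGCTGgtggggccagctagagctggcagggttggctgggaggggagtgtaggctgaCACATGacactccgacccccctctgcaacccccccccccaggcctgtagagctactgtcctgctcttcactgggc
Chrne: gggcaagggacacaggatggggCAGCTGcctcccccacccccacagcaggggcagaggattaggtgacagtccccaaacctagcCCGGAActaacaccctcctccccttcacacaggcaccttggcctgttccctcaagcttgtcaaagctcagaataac
Cav3: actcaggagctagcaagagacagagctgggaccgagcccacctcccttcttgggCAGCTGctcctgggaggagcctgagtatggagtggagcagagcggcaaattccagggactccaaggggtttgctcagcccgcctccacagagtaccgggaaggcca

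Counting from -1 at the base before the start, Chrna1 held 3 E-boxes, CAGCTG at -92 and at -44 and CAGGTG at -73. Chrng also held 3, CAGCTG at -155 and at -132 and CACATG at -75. Chrnb1 held CATTTG at -119, CAGTTG at -96 and CAGGTG at -29, so the number of matches was the same for these 3 subunit genes. Chrne held 1 E-box, CAGCTG at -138, and was the only 1 of the 6 members found with an N-box, at -76 to -71. Cav3 held 2 E-boxes in the 250 bases before its start, of which CAGCTG at -106 lies in the stretch shown, and Musk held 3. Of 32851 RefSeq windows of 250 bases, 66.2% held at least 1 E-box, 12.2% held at least 3 and 12% held an N-box. A match describes the letters and is not a site.

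On the build of the alignment (mm9, NCBIM37), all 8 members are annotated as protein-coding. Chrnd (chr1:89087227-89096644) and Chrng (chr1:89102386-89108410) are neighbours on the plus strand with 5741 bases between them. Chrnb1 (chr11:69597538-69609445) and Chrne (chr11:70428385-70432718) both lie on the minus strand of chromosome 11. The others are Chrna1 (chr2:73401272-73418395, minus strand), Rapsn (chr2:90875777-90885886, plus strand), Musk (chr4:58298834-58390290, plus strand) and Cav3 (chr6:112409495-112422865, plus strand). An antisense gene overlaps Rapsn by 4 exonic bases, and another overlaps Chrne with no shared exonic base; whether the authors' counting used strand is not given in the sources used here.

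**Figure D1:**
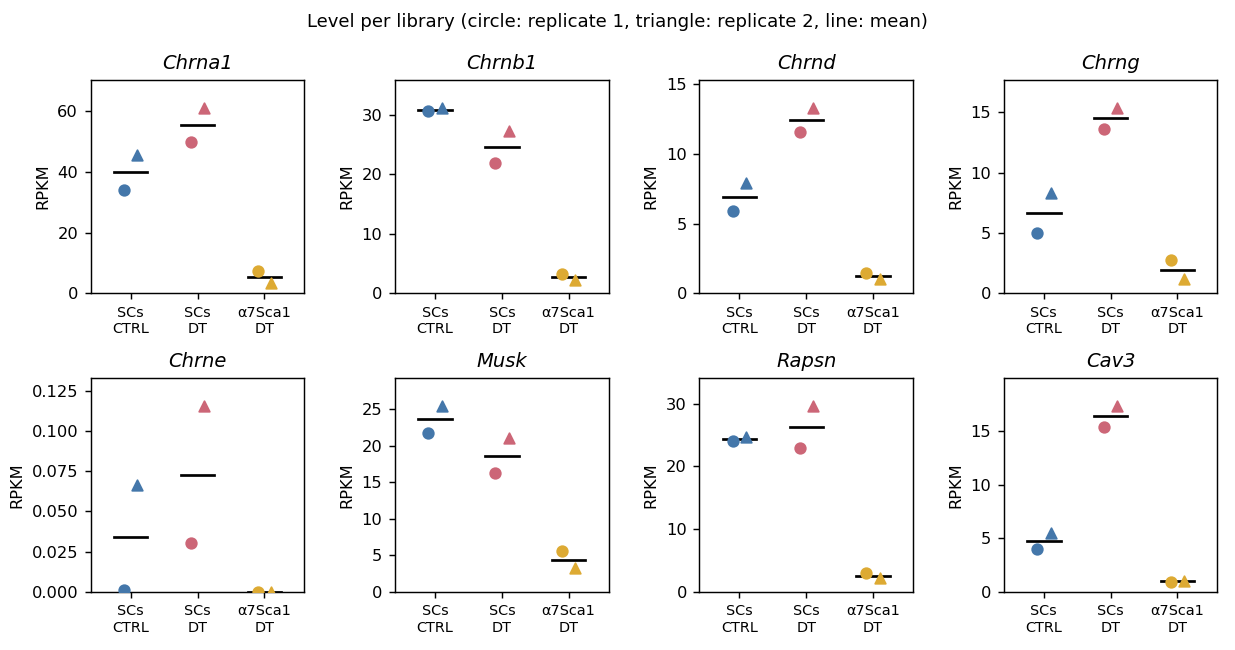
Level of each of the 8 genes in each library, in RPKM on a linear axis that differs between panels, for SCs CTRL, SCs DT and α7Sca1 DT (2 libraries each, circle replicate 1, triangle replicate 2, line the mean). α7Sca1 cells are lowest for every gene, Cav3 separates SCs DT (15.4 and 17.4 RPKM) from SCs CTRL (3.96 and 5.49 RPKM), and Chrne stays at or below 0.116 RPKM.

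Transcripts of the α, β, δ and γ subunits, the fetal set, were present in both SC groups. In SCs CTRL replicates 1 and 2, Chrna1 was at 34.2 and 45.7 RPKM, and in SCs DT at 49.99 and 61.3 RPKM. Chrng was at 5.04 and 8.32 RPKM in SCs CTRL, against 13.6 and 15.4 in SCs DT. For both genes each SCs DT library was above each SCs CTRL library. Chrnd, which neighbours Chrng and shared its profile in SCs, was at 5.88 and 7.91 RPKM in SCs CTRL, against 11.6 and 13.3 in SCs DT, again without overlap. Chrnb1 went the other way, from 30.6 and 31.2 RPKM in SCs CTRL to 21.8 and 27.3 RPKM in SCs DT. The adult subunit gene Chrne reached at most 0.0666 RPKM in SCs CTRL (0.00122 in the other library), 0.0301 and 0.116 in SCs DT, and was listed at 0 in both α7Sca1 libraries. It was below the 0.25 RPKM limit everywhere and its groups overlapped in SCs. Without that limit, its limma log2 fold change between SCs DT and SCs CTRL was 0.053 (adjusted p = 0.842 over 20380 genes).

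None of the 4 detected subunit genes passed the test between SCs DT and SCs CTRL (limma on log2(RPKM + 1), Benjamini-Hochberg over 13934 genes, threshold 0.05; fold changes below are on this scale, which understates the change of low genes). For Chrng the means were 6.68 ± 2.32 and 14.5 ± 1.27 RPKM (SD, n = 2), a log2 fold change of 1.04 with a 95% interval of 0.298 to 1.79 and an adjusted p of 0.294 in limma. For Chrnd the values were 6.90 ± 1.43 and 12.5 ± 1.23 RPKM (log2 fold change 0.78, interval 0.269 to 1.29, limma adjusted p = 0.249). The intervals of both genes lay above 0 before adjustment, with unadjusted limma p of 0.0126 and 0.00838. Chrna1 had a log2 fold change of 0.48 (interval -0.339 to 1.29, limma adjusted p = 0.734), and Chrnb1 of -0.33 (interval -0.879 to 0.223, limma adjusted p = 0.726), and both intervals include 0.

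The shares and ratios of the subunits were chosen after the values were seen and are given without a test. The 5 subunit genes summed to 75.7 and 93.2 RPKM in SCs CTRL, 97.0 and 117 in SCs DT and 14.9 and 7.66 RPKM in α7Sca1 cells. Chrnb1 made up 40.4% and 33.5% of that sum in SCs CTRL but 22.5% and 23.2% in SCs DT. The share of Chrng was 6.66% and 8.93% in SCs CTRL and 14.0% and 13.1% in SCs DT, and Chrna1 held between 42.6% and 52.2% in all 6 libraries. Set against Chrnb1, the level of Chrng was 0.165 and 0.266 in SCs CTRL, 0.622 and 0.564 in SCs DT and 0.824 and 0.544 in α7Sca1 cells. The α7Sca1 libraries, at a much lower sum, had shares of Chrnb1 below (22.4% and 28.6%) and of Chrng above (18.4% and 15.5%) both SCs CTRL libraries. The difference between log2(Chrng + 1) and log2(Chrne + 1), the fetal minus the adult subunit, was 2.59 and 3.13 in SCs CTRL, 3.82 and 3.88 in SCs DT and 1.91 and 1.13 in α7Sca1 cells. With Chrne near 0 this measure is almost log2(Chrng + 1) alone and restates the values of Chrng rather than a balance of both subunits. SCs DT exceeded SCs CTRL by 0.99 (exact two-sided permutation test, p = 0.333, the smallest value that 2 libraries against 2 allow).

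**Figure D2:**
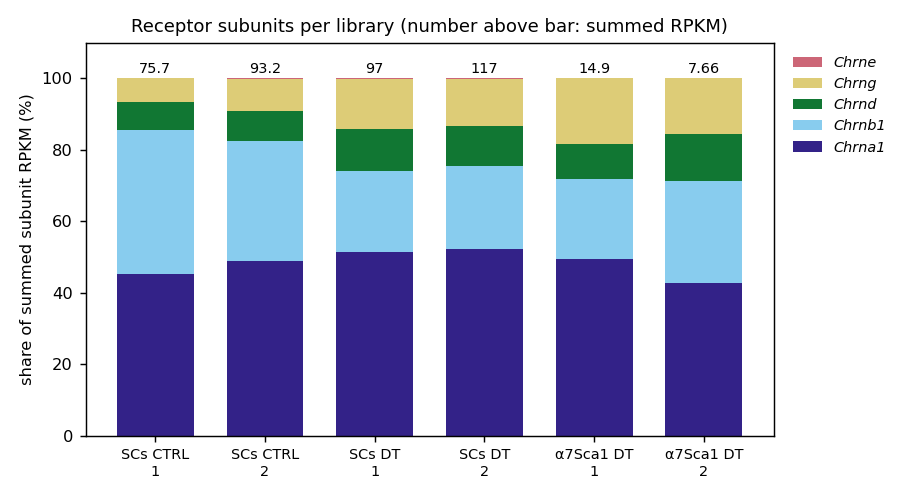
Share of each receptor subunit gene in the summed RPKM of the 5 subunit genes, in percent, for each of the 6 libraries, with the sum above the bar. The share of Chrnb1 is 40.4% and 33.5% in SCs CTRL and between 22.4% and 28.6% in the other 4 libraries, Chrng has its lowest shares in SCs CTRL, and Chrne is at most 0.0986%.

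Of the genes of the clustering machinery, neither Musk nor Rapsn passed between the SC groups. Musk was at 21.8 and 25.5 RPKM in SCs CTRL, against 16.2 and 21.1 in SCs DT, lower without overlap (log2 fold change -0.33, interval -0.972 to 0.304, limma adjusted p = 0.774). Rapsn was at 24.1 and 24.7 RPKM in SCs CTRL, against 23.0 and 29.7 in SCs DT, with the control libraries inside the range of the others (log2 fold change 0.093, interval -0.436 to 0.623, limma adjusted p = 0.970). Its sign turned without SCs DT replicate 2 (log2 fold change -0.084). The ratio of Musk to Rapsn, also looked at after the values were seen, was 0.904 and 1.03 in SCs CTRL, 0.707 and 0.710 in SCs DT and 1.89 and 1.52 in α7Sca1 cells.

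Cav3 was the only member that passed the test between the SC groups. It was at 3.96 and 5.49 RPKM in SCs CTRL, against 15.4 and 17.4 in SCs DT, and every SCs DT library was above every SCs CTRL library. The mean rose from 4.73 ± 1.08 to 16.4 ± 1.39 RPKM (SD, n = 2), which is 3.47-fold, with a log2 fold change of 1.61 ± 0.206 (SE) and a limma adjusted p of 0.0299. The call was lost without any 1 of the 6 libraries, with the log2 fold change between 1.42 (without SCs CTRL replicate 1, adjusted p = 0.321) and 1.81 (without SCs CTRL replicate 2, adjusted p = 0.0712), and with no filter on low values (adjusted p = 0.0922). Cav1, the broadly expressed caveolin, was at 153 and 185 RPKM in SCs CTRL, against 159 and 145 in SCs DT, and the ratio of Cav3 to Cav1 was 0.0259 and 0.0298 in SCs CTRL, 0.0967 and 0.120 in SCs DT and 0.00879 and 0.0180 in α7Sca1 cells.

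In this comparison 0.352% of all genes tested were called higher and 0.0933% lower, against 1 and 0 of the 7 members. Chrna1, Chrnd, Chrng and Cav3 were higher in SCs DT without overlap of the libraries, as were 21.6% of all genes, and Chrnb1 and Musk were lower without overlap, as were 25.1% of all genes. The median log2 fold change of the 7 members was 0.48, beside -0.0096 over all genes tested.

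Transcripts of mature fibers moved with Cav3. The 16 fiber genes (among them Acta1, Ckm, Mb and Myh4) summed to 253 and 483 RPKM in SCs CTRL, 1561 and 2319 in SCs DT and 50.7 and 46.3 RPKM in α7Sca1 cells. In SCs DT 9 of the 15 tested were higher than in SCs CTRL, such as Ckm, the creatine kinase of muscle (73.0 against 7.10 RPKM, log2 fold change 3.23, limma adjusted p = 0.00890), and Myh4, a fast myosin heavy chain (9.30 against 0.554 RPKM, log2 fold change 2.72, limma adjusted p = 0.00659). The median of the 15 was 2.37. None of the 15 passed without SCs CTRL replicate 1 or without SCs DT replicate 2, and 2 passed without SCs DT replicate 1 or either α7Sca1 library. Whether fibers or fiber fragments contributed to the Cav3 level was not tested, and in bulk samples fewer cells of a type and less RNA per cell cannot be told apart. Chrne, the member of the adult endplate, was at or below 0.116 RPKM in the same libraries. Its level was not used as a measure of fiber content.

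Within each SC group, all 8 members were higher in replicate 2 than in replicate 1, as were 55.5% of all genes in SCs CTRL and 52.9% in SCs DT. The fiber genes leaned the same way, with 16 of 16 higher in replicate 2 of SCs CTRL and 14 of 16 in SCs DT. In α7Sca1 cells 6 members were instead higher in replicate 1, only Cav3 was higher in replicate 2 and Chrne was listed at 0 in both, whereas 12 of 16 fiber genes and 51.1% of all genes were higher in replicate 2. The part of fiber or myogenic content in this spread was not tested.

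**Figure D3:**
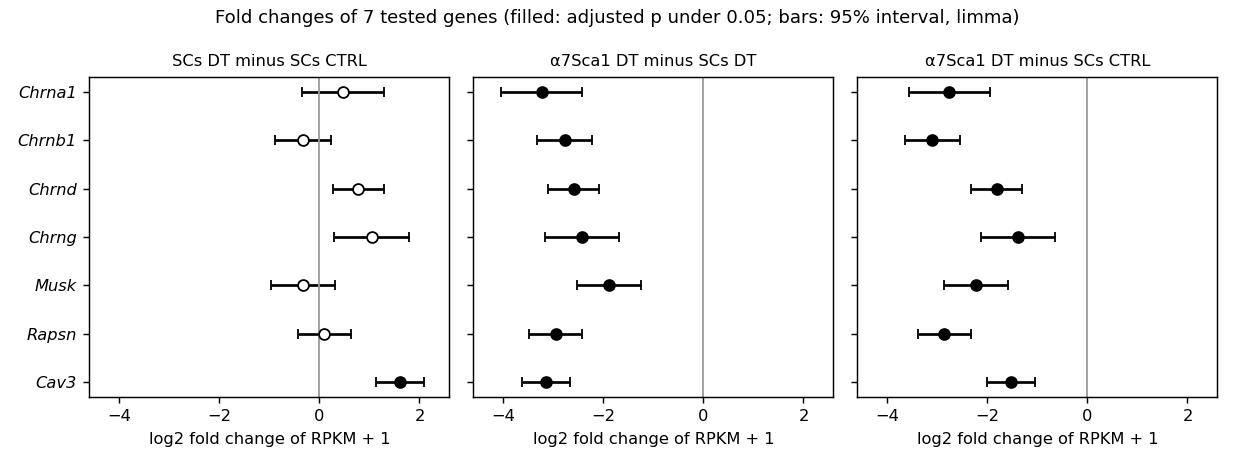
Fold changes of the 7 tested members on the log2(RPKM + 1) scale in the 3 comparisons, with 95% intervals from limma and filled points for an adjusted p under 0.05. Between the SC groups only Cav3 (1.61) is filled, and all 7 lie below 0 and are filled in both comparisons with α7Sca1 cells, from -1.39 (Chrng against SCs CTRL) to -3.24 (Chrna1 against SCs DT).

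In α7Sca1 cells all 7 tested members were below their level in SCs DT, which came from muscles treated in the same way, and none of the libraries overlapped. Chrna1 was at 7.38 and 3.26 RPKM in α7Sca1 cells, 10.5-fold below the mean of SCs DT (log2 fold change -3.24, limma adjusted p = 0.000760). Chrnb1 was at 3.34 and 2.19 RPKM and 8.89-fold lower, with a log2 fold change of -2.77 (limma adjusted p = 0.000302). Chrnd was at 1.46 and 1.02 RPKM and 10.1-fold lower, with a log2 fold change of -2.59 (limma adjusted p = 0.000294). The remaining detected subunit gene, Chrng, at 2.75 and 1.19 RPKM, was 7.35-fold lower (log2 fold change -2.43, limma adjusted p = 0.00168). Without α7Sca1 replicate 1 the ratio was 17.0 for Chrna1 and 12.2 for Chrng.

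Of the other members, Rapsn was at 2.93 and 2.11 RPKM in α7Sca1 cells, 10.4-fold below SCs DT (log2 fold change -2.95, limma adjusted p = 0.000234). Musk, at 5.53 and 3.21 RPKM, was 4.27-fold lower (log2 fold change -1.89, limma adjusted p = 0.00255). Cav3, at 0.901 and 1.03 RPKM, was 16.9-fold lower (log2 fold change -3.14, limma adjusted p = 0.000173). Of all genes tested, 15.6% were called lower in α7Sca1 cells and 36.4% were lower without overlap, and the median log2 fold change was -2.77 for the members and -0.043 for all genes. The fiber genes were lower too, 15 of 15, with a median of -3.83, and so were 7 of 8 SC genes, with a median of -1.503. The part of either in the members' lower level was not tested.

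Against SCs CTRL, a comparison that shares the α7Sca1 libraries with the one above and is therefore no separate evidence, all 7 members were again lower without overlap. The ratios ran from 3.39-fold for Chrng (log2 fold change -1.39, limma adjusted p = 0.0151) to 11.2-fold for Chrnb1 (log2 fold change -3.10, limma adjusted p = 0.000186). Between these lay Cav3 at 4.88-fold, Musk at 5.41-fold, Chrnd at 5.58-fold, Chrna1 at 7.51-fold and Rapsn at 9.67-fold. Without α7Sca1 replicate 1 the ratio was 5.61 for Chrng and 12.2 for Chrna1. Chrng did not pass without SCs CTRL replicate 2 (log2 fold change -1.08, adjusted p = 0.116) or without α7Sca1 replicate 2 (adjusted p = 0.0554). In this comparison 17.3% of all genes were called lower and 38.1% were lower without overlap, with a median of -2.23 for the members and -0.062 for all genes.

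The order of the levels also differed between groups. In SCs CTRL, Chrna1 was highest, followed by Chrnb1, Rapsn, Musk, Chrnd, Chrng, Cav3 and Chrne, and the libraries of Rapsn and Musk, of Chrnd and Chrng and of Chrng and Cav3 overlapped. In SCs DT the order was Chrna1, Rapsn, Chrnb1, Musk, Cav3, Chrng, Chrnd and Chrne, with overlap between Rapsn and Chrnb1 and between Musk and Cav3. Cav3 and Chrng, which are separated in SCs DT, differed there by only 15.405 against 15.382 RPKM at their nearest libraries. In α7Sca1 cells Chrna1 and Musk led, and every pair of neighbours in the order overlapped down to Cav3.

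Upstream of the receptor, 12 of 13 genes of agrin and neuregulin signalling were tested. None passed between the SC groups, and the most abundant, Cttn, an actin-binding substrate of tyrosine kinases (36.6 and 33.6 RPKM as means of SCs CTRL and SCs DT, log2 fold change -0.12, limma adjusted p = 0.944), and Crk, an adaptor bound by Dok7 (10.6 and 14.3 RPKM, log2 fold change 0.39, limma adjusted p = 0.633), did not pass, although for both genes the libraries of the SC groups did not overlap. At an unadjusted limma p under 0.05, 2 of the 12 were higher in SCs DT and 0 lower, where all genes gave 733 higher and 716 lower of 13934. Of all genes tested, 15.6% were called lower in α7Sca1 cells against SCs DT and 17.3% against SCs CTRL. Compared with SCs DT, 5 of the 12 were lower in α7Sca1 cells and none was higher. They included Dok7, the Musk activator (0.355 against 3.50 RPKM, log2 fold change -1.73, limma adjusted p = 0.000923), Pak1, a kinase of the actin cytoskeleton (1.03 against 6.66 RPKM, log2 fold change -1.93, limma adjusted p = 0.00128), Erbb3, a neuregulin receptor (-1.29, limma adjusted p = 0.00239), and Crk (-1.20, limma adjusted p = 0.00722). The count was 3 without SCs DT replicate 1. Agrn, at 1.31 to 1.93 RPKM in SCs, and Lrp4, at 0.407 to 0.616 RPKM in SCs, were low and did not pass in any of the 3 comparisons. Against SCs CTRL 6 of the 12 were lower in α7Sca1 cells, led by Pak1 (log2 fold change -1.88, limma adjusted p = 0.00133) and Dok7 (-1.39, limma adjusted p = 0.00214), with 2 lower without either SCs CTRL library and 3 without SCs DT replicate 2 or α7Sca1 replicate 2.

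Of 13 genes of the postsynaptic scaffold and its channels, none passed between the SC groups, where Ncam1 (13.5 and 11.6 RPKM as means of SCs CTRL and SCs DT) and Plec (8.17 and 10.7 RPKM) were the most abundant, although 6 were higher in SCs DT at an unadjusted limma p under 0.05. The shares of all genes called lower in α7Sca1 cells were 15.6% against SCs DT and 17.3% against SCs CTRL. Compared with SCs DT, 10 of the 13 were lower in α7Sca1 cells, with a median of -0.70. The largest differences were in Nes, an intermediate filament of myoblasts and endplates (0.779 against 8.85 RPKM, log2 fold change -2.47, limma adjusted p = 0.000360), and Ncam1, an adhesion molecule of SCs and denervated fibers (1.65 against 11.6 RPKM, log2 fold change -2.21, limma adjusted p = 0.00243). Plec, a cytoskeletal linker (-1.40, limma adjusted p = 0.00380), and Dtna, which encodes α-dystrobrevin (-1.32, limma adjusted p = 0.00191), followed. Without SCs DT replicate 1, 6 of the 13 passed. Against SCs CTRL 5 were lower in α7Sca1 cells, among them Ncam1 (-2.43, limma adjusted p = 0.00151) and Nes (-1.69, limma adjusted p = 0.00157), and 3 without either SCs CTRL library.

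The 10 genes of the synaptic cleft and basal lamina formed, with the caveolin partners, the only lists of the synapse with calls in both directions against SCs DT. Over all 13934 genes tested, 2041 were called higher and 2175 lower in α7Sca1 cells against SCs DT. Against SCs CTRL these numbers were 2102 and 2404. None passed between the SC groups, where Lamb2 (29.6 and 27.5 RPKM as means of SCs CTRL and SCs DT) and Hspg2 (11.1 to 12.4 RPKM over the 4 libraries) were the most abundant and 3 were higher in SCs DT at an unadjusted limma p under 0.05. Compared with SCs DT, 5 were lower in α7Sca1 cells, such as Lama5, a laminin α chain of the basal lamina (1.69 and 1.31 against 12.2 and 8.39 RPKM, log2 fold change -2.16, limma adjusted p = 0.000658), and Hspg2, which encodes perlecan (-1.38, limma adjusted p = 0.0119). By contrast, Bche, which encodes butyrylcholinesterase, was higher in α7Sca1 cells, at 4.14 and 8.16 RPKM against 0.383 and 0.580 RPKM in SCs DT (log2 fold change 2.22, limma adjusted p = 0.00131). Lama4, another laminin α chain, was also higher, at 8.41 and 5.46 RPKM against 1.80 and 1.80 RPKM (log2 fold change 1.48, limma adjusted p = 0.0109). Only 1 of these 2 passed without either SCs DT library. Against SCs CTRL 3 were lower and 2 higher in α7Sca1 cells, the latter again Bche (1.85, limma adjusted p = 0.00261) and Lama4 (1.04, limma adjusted p = 0.0360), and 1 was higher without SCs CTRL replicate 2, either SCs DT library or α7Sca1 replicate 1.

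**Figure D4:**
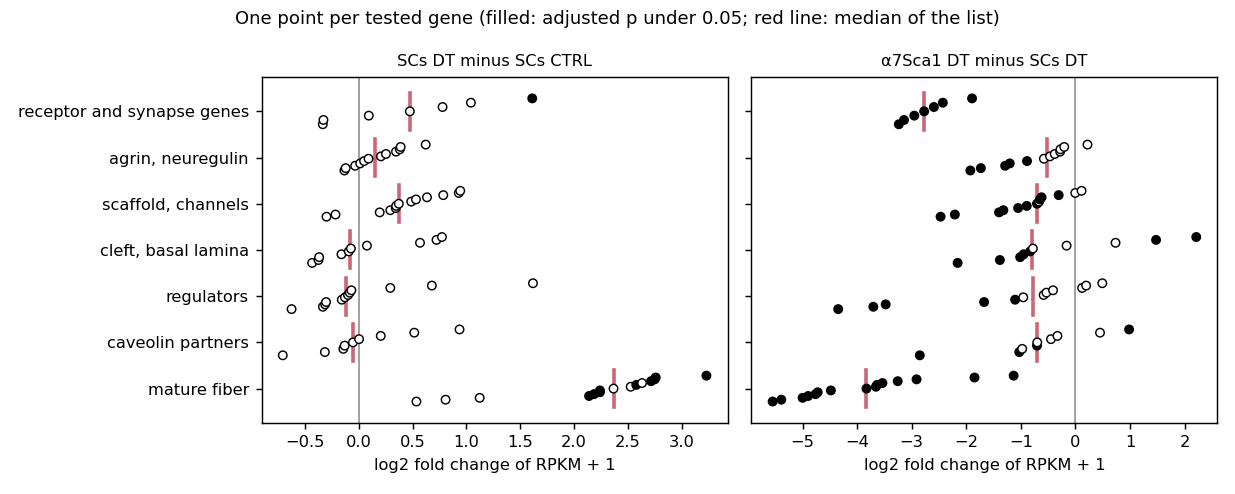
Fold changes on the log2(RPKM + 1) scale for each tested gene of 7 lists (filled: limma adjusted p under 0.05; red line: median of the list), for SCs DT minus SCs CTRL and for α7Sca1 DT minus SCs DT. Between the SC groups the receptor and synapse genes have a median of 0.48 with 1 filled point, Cav3, and the fiber genes a median of 2.37 with 9. For α7Sca1 cells against SCs DT the medians are -2.77 and -3.83.

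Among the transcription factors that act on synaptic genes, 12 of 13 were tested and none passed between the SC groups, including Myog (means of 126 ± 55.7 and 193 ± 11.2 RPKM for SCs CTRL and SCs DT, log2 fold change 0.68, limma adjusted p = 0.573) and Myf5 (54.2 and 53.0 RPKM, log2 fold change -0.084, limma adjusted p = 0.986), and 1 was higher in SCs DT at an unadjusted limma p under 0.05. One further gene, chosen after its values were seen, is Myf6, the myogenic factor of late differentiation, at 0.237 and 0.269 RPKM in SCs CTRL, against 1.78 and 4.32 in SCs DT (log2 fold change 1.62, limma adjusted p = 0.0826); 1 gene of the list passed without SCs DT replicate 1. Compared with SCs DT, 5 of the 12 were lower in α7Sca1 cells, where 15.6% of all genes were called lower (17.3% against SCs CTRL). The 5 were led by the E-box binding factors. Myog was at 8.62 against 193 RPKM (log2 fold change -4.35, limma adjusted p = 0.000252), Myod1 at 3.08 against 44.1 RPKM (-3.48, limma adjusted p = 0.000197), Myf5 at 3.12 against 53.0 RPKM (-3.70, limma adjusted p = 0.000460) and Myf6 at 0.213 against 3.05 RPKM (-1.67, limma adjusted p = 0.00534). On the log2(RPKM + 1) scale, Myog, Myod1 and Myf5 had larger fold changes than any of the 7 members. This order depends on the scale, which understates the change of low genes. Cav3, at a mean of 0.968 RPKM in α7Sca1 cells, was 16.9-fold lower than in SCs DT by group means. Against SCs CTRL 6 were lower, with Myf5 (-3.79, limma adjusted p = 0.000409), Myod1 (-3.78, limma adjusted p = 0.000122) and Myog (-3.67, limma adjusted p = 0.000413) first, and 4 without SCs CTRL replicate 1.

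Of the 9 partners of caveolins, none passed between the SC groups, where Cav1 (log2 fold change -0.14, limma adjusted p = 0.968) and Ptrf, which encodes the caveolar coat protein cavin-1 (-0.31, limma adjusted p = 0.736), were the most abundant and 1 was higher and 1 lower in SCs DT at an unadjusted limma p under 0.05. Compared with SCs DT, 3 were lower in α7Sca1 cells and 1 was higher. Over all 13934 genes tested, 15.6% were called lower and 2041 genes higher in that comparison, and 17.3% were called lower against SCs CTRL. Murc, which encodes the muscle cavin, was at 1.06 against 13.7 RPKM (log2 fold change -2.85, limma adjusted p = 0.000688) and so moved by nearly as much as Cav3. Prkcdbp, which encodes cavin-3 (-1.03, limma adjusted p = 0.0373), and Dysf, which encodes the membrane repair protein dysferlin (-0.70, limma adjusted p = 0.00971), were also lower, and Sdpr, which encodes cavin-2, was higher (55.4 against 26.9 RPKM, log2 fold change 0.98, limma adjusted p = 0.0309). Only 1 was lower without SCs DT replicate 1 and 5 without α7Sca1 replicate 1, and none was higher without any 1 library other than α7Sca1 replicate 1. Against SCs CTRL 4 were lower in α7Sca1 cells, with Murc first (-2.34, limma adjusted p = 0.00145), and 1 without either SCs CTRL library or SCs DT replicate 2.

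Of the 11 neuronal nicotinic subunit genes, which encode receptors of neurons and some immune cells, 2 exceeded 0.25 RPKM. Chrna7 was at 1.57 and 1.22 RPKM in SCs CTRL, 0.484 and 0.389 in SCs DT and 0.0463 and 0.0385 RPKM in α7Sca1 cells, in that order without overlap. It did not pass between the SC groups (log2 fold change -0.74, limma adjusted p = 0.0724), and α7Sca1 cells had less of it than SCs CTRL (-1.20, limma adjusted p = 0.000697) and SCs DT (-0.46, limma adjusted p = 0.0309), the latter call being lost without any 1 of the 4 libraries compared. SCs CTRL replicate 1 had the highest level of both Chrna7 and the macrophage genes. In SCs DT the macrophage genes summed to 223 and 429 RPKM in replicates 1 and 2, whereas Chrna7 was higher in replicate 1. The α7Sca1 libraries, lowest in Chrna7, had macrophage sums of 292 and 268 RPKM, most of it from Cd14 (194 and 197 RPKM). Cd68, Emr1, Csf1r, Lyz2, Itgam and Mrc1 were lowest in the α7Sca1 libraries. Cd74 overlapped there with SCs DT. The part of macrophages in the Chrna7 level was not tested. The sort had removed Lin+ cells, which include those with CD45, the marker of blood-derived cells. Transcripts of motor neurons were near 0 in every library, with Chat at most 0.0423 RPKM, Slc18a3 at most 0.0107 RPKM and Mnx1 listed at 0 throughout, and the 8 motor neuron and nerve terminal genes summed to 0.358 to 0.592 RPKM in SCs and to 1.33 and 3.06 RPKM in α7Sca1 cells, the excess lying in Isl1 and Snap25.

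The genes whose profile over the 6 libraries was most like the mean standardised profile of the 7 members were sought among 5179 genes with a group mean of at least 5 RPKM. They were Jam3, a junctional adhesion molecule (Pearson r = 0.9987), Aif1l, an actin-binding protein (0.9985), Actn3, the α-actinin of fast fibers (0.9984), Cd63, a tetraspanin of late endosomes (0.9979), and Myzap (0.9975). These values are descriptions over 6 libraries in 3 groups, and the α7Sca1 libraries were the lowest for each of these 5 genes. Among the members themselves, r with this mean profile ran from 0.924 for Cav3 to 0.997 for Chrna1. Each member is part of that mean, which raises its r, so these values are no test of likeness among members. Actn3 was at 32.0 and 48.1 RPKM in SCs CTRL, 60.8 and 79.2 in SCs DT and 5.74 and 3.76 RPKM in α7Sca1 cells, and like Chrna1 it was higher in replicate 2 of both SC groups and in replicate 1 of α7Sca1 cells.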

How the data were processed

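RNA of 6 sorted cell pools (SCs CTRL, SCs DT and α7Sca1 cells, 2 libraries each) was amplified by SMART-seq2 from 5 ng and sequenced as 50 bp single-end reads. The authors aligned reads to mm9 within HTS-flow with TopHat and deposited RPKM per gene. The submitters' notes on processing give TopHat2 2.0.8, whereas the methods name another version. The deposited RPKM share one distribution over the 6 libraries (sorted values differ by at most 0.0192 RPKM), so read depth is unknown, differences in total signal are removed, and no counting interval is given. A further table of 10 per-sample columns, 4 of them of another cell type, together with the authors' own fold changes and p-values, was not used.

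Genes with a maximum above 0.25 RPKM were tested with limma 3.58.1 (R 4.3.3) on log2(RPKM + 1) with a variance trend, in one model over the 3 groups, with Benjamini-Hochberg adjustment over 13934 genes and a threshold of 0.05. The method was tested on simulated data. Alternatives changed the pseudocount (0.1, 0.5), the filter, the scaling, the trend, the libraries in the fit and the replicate block. The members and lists were chosen with earlier results of these data known. From each list, the text names up to 4 called genes of largest fold change per comparison, or the 2 most abundant where none was called. Promoters are RefSeq windows of 250 bases.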

Additional observations from a re-analysis of the deposited data

How the results depend on the processing

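The count of members called between SCs DT and SCs CTRL (1, Cav3) was 0 with no filter on low values and 0 to 0 when each library was left out in turn, and Cav3 passed in 8 of 15 alternatives (limma adjusted p 0.0200 to 0.321, log2 fold change 1.42 to 1.81). Rapsn, which was never called, ranged from -0.084 (without SCs DT replicate 2) to 0.27 (without SCs DT replicate 1). All genes called higher between the SC groups numbered 49, with 2 under no filter, 28 without the variance trend and 0 to 34 with a library left out, and those called lower numbered 13, with 2, 7 and 0 to 33. In the comparisons with α7Sca1 cells all 7 members passed in all 14 alternatives, except Chrng against SCs CTRL, which passed in 12. All genes called lower against SCs DT numbered 2175, and 875 and 1071 without SCs DT replicates 1 and 2, while against SCs CTRL they numbered 2404, and 1177 and 971 without SCs CTRL replicates 1 and 2. The fetal to adult subunit difference lay between 0.72 and 1.26 in its alternatives, and with 2 libraries per group its exact p could not fall below 0.333.

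The libraries share replicate numbers but no stated pairing. The deviations of equally numbered libraries correlated across genes with r of -0.13 (SCs CTRL with SCs DT), 0.16 (SCs CTRL with α7Sca1 cells) and 0.25 (SCs DT with α7Sca1 cells). With a replicate block 1 member was called between the SC groups, 7 against SCs DT and 7 against SCs CTRL, and over all genes 67 were higher and 25 lower between the SC groups. With the SCs CTRL numbers crossed, an alternative chosen after seeing the data, 1 member, 54 higher genes and 14 lower genes were called.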
